A study of Mus musculus with 7 samples.

Results

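The 36 genes described here are megakaryocyte and platelet genes: platelet glycoproteins and other receptors, granule and secreted proteins, coagulation factors, enzymes of lipid mediators, and proteins of platelet signalling, traffic and shape. They were found by gene symbol in the table of read counts, where they are 36 of 35976 rows, and all 36 passed the filter on low counts that left 14679 genes for testing. RNA was measured in lineage-negative (Lin-) cells of C57BL/6 fetal liver at embryonic stage E14.5, the cells left after magnetic beads removed those with markers of mature blood lineages. The 3 control libraries came from Brd9 fl/fl embryos, in which the gene for the chromatin remodelling protein BRD9 carries loxP sites, and the 4 knockout libraries from Vav1-iCre Brd9 fl/fl embryos. Both groups carried CD45.2 and the floxed alleles. Vav1-iCre is a recombinase driven by a promoter active in blood cells, megakaryocytes among them, and endothelial cells can express it too. Every knockout and no control carried it, so an effect of the recombinase and one of losing Brd9 cannot be told apart. The labels do not say whether a library is 1 embryo or a pool, and p-values speak only for the spread among libraries, part of which may be technical.

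Megakaryocytes are the large cells that shed platelets, and in the fetus they form in the liver beside the erythroid cells with which they share a progenitor. They load platelets with granules of chemokines and adhesive proteins and with the receptors that sense a damaged vessel: von Willebrand factor binds the glycoprotein Ib complex, collagen binds glycoprotein VI, and thrombin, ADP and thromboxane act through receptors of their own. These signals converge on the integrin of Itga2b and Itgb3, which binds fibrinogen and joins platelets together. The lineage markers removed by the beads are not listed in the labels.

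Brd9 itself was lower in every knockout, and the depth was similar throughout. Library totals ran from 18748885 to 23571878 reads, and levels are reads scaled to CPM by the TMM-adjusted library total. Brd9 stood at 30.5 to 36.5 CPM in control libraries against 8.57 to 13.2 CPM in knockouts (log2 fold change -1.53, edgeR quasi-likelihood, Benjamini-Hochberg adjusted p = 0.0037). The fraction held reads of other cells as well. Summed over marker lists, neutrophil genes held 4965 to 8843 CPM in control libraries against 1654 to 3813 CPM in knockouts, macrophage genes 321 to 441 and 170 to 259 CPM, stem cell genes 516 to 682 and 375 to 490 CPM, and erythroid genes 2903 to 4638 and 4051 to 5195 CPM. Hepatocyte genes held 11090 to 19410 and 13970 to 24990 CPM, endothelial genes 230 to 365 and 223 to 277 CPM, stromal and stellate genes 87.1 to 138 and 99.2 to 198 CPM with Tagln at 0, and mast cell and basophil genes 407 to 572 and 290 to 434 CPM. The most abundant gene was Mpo in the neutrophil list (2145 CPM over all libraries), Slc40a1 in the macrophage list (84.4 CPM), Hba-a1 in the erythroid list (1015 CPM), Alb in the hepatocyte list (6198 CPM), Egfl7 in the endothelial list (56.0 CPM), Reln in the stromal list (51.5 CPM), and Kit in the stem cell, mast cell and identity lists (237 CPM). In the list of lineage and leukocyte identity genes, of 655 to 881 CPM in control libraries against 453 to 608 CPM in knockouts, Cd3e of T cells had reads only in knockout 3 (73 reads, 3.46 CPM) and was at 0 in the other libraries. Between the groups edgeR called 6 of 15 neutrophil genes and 1 of 5 tested identity genes lower, where 0.545% of all genes were called lower. It called no gene of the other lists in either direction. The sums of the neutrophil, macrophage, stem cell and identity lists did not overlap between the groups, and the others did. Without Kit the stem cell sums (243 to 369 and 215 to 278 CPM) and the identity sums (389 to 568 and 293 to 406 CPM) overlapped, whereas the neutrophil sums without Mpo and the macrophage sums without Slc40a1 still did not. Where a pair of values follows without group names, the controls come first.

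Of the 36 megakaryocyte and platelet genes, 32 were lower in the knockouts on average and 4 were higher (Pf4, Mrvi1, Cd9 and Gp9), where 47.6% of all tested genes were lower. No member passed the edgeR test, in which 0.559% of all tested genes changed. At an unadjusted p under 0.05, 6 members were lower (Ppbp, Selp, F5, Slc6a4, Ptgs1 and Rasgrp2), against 6.9% of all genes, and 0 were higher, against 3.95%. DESeq2 called Selp, Slc6a4 and Ptgs1 lower and no member higher, against 1.95% and 0.33% of the genes it gave an adjusted p. Limma-voom called 0 members, where it called 0.49% of all genes lower. The authors' deposited table lists those 3 members under its adjusted p of 0.05, at 0.000577 for Selp, 0.00342 for Slc6a4 and 0.000507 for Ptgs1. It is a DESeq2 comparison of the same libraries, with the same log2 fold changes for the members, and so adds no independent support. In 5 members (Ppbp, Selp, F5, Slc6a4 and Ptgs1) every knockout lay below every control, which was so for 6.81% of all genes. The median log2 fold change of the members was -0.31, and that of all tested genes 0.01.

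The members varied together from library to library within each group. Control 2 held the highest control level of 34 members, knockout 2 the highest knockout level of 32, and knockout 3 the lowest knockout level of 29. High levels in control 2 were not particular to the members. It also held the highest control sum of the neutrophil, endothelial, stem cell, mast cell and identity lists. Its sums of the macrophage, hepatocyte, stromal and erythroid lists were the lowest of the controls. Summed over the 36 members, control libraries had 3060, 4916 and 3004 CPM, and knockout libraries 2510, 4308, 1904 and 3378 CPM. Relative to the control mean on the log2 CPM scale, the median member stood at -0.24, 0.53 and -0.27 in controls 1 to 3 and at -0.64, 0.20, -0.98 and -0.06 in knockouts 1 to 4. The median of all genes stayed within 0.012 of the control mean in every library. TMM scaling centres the typical gene of each library, so this follows from the scaling and does not set the members apart. By their medians the 2 groups overlap for the list as a whole. Its direction leans on single libraries: 19 members were lower without control 2, 24 without knockout 3 and 36 without knockout 2. In bulk RNA fewer megakaryocytes and less of each transcript per megakaryocyte cannot be told apart.

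**Figure D1:**
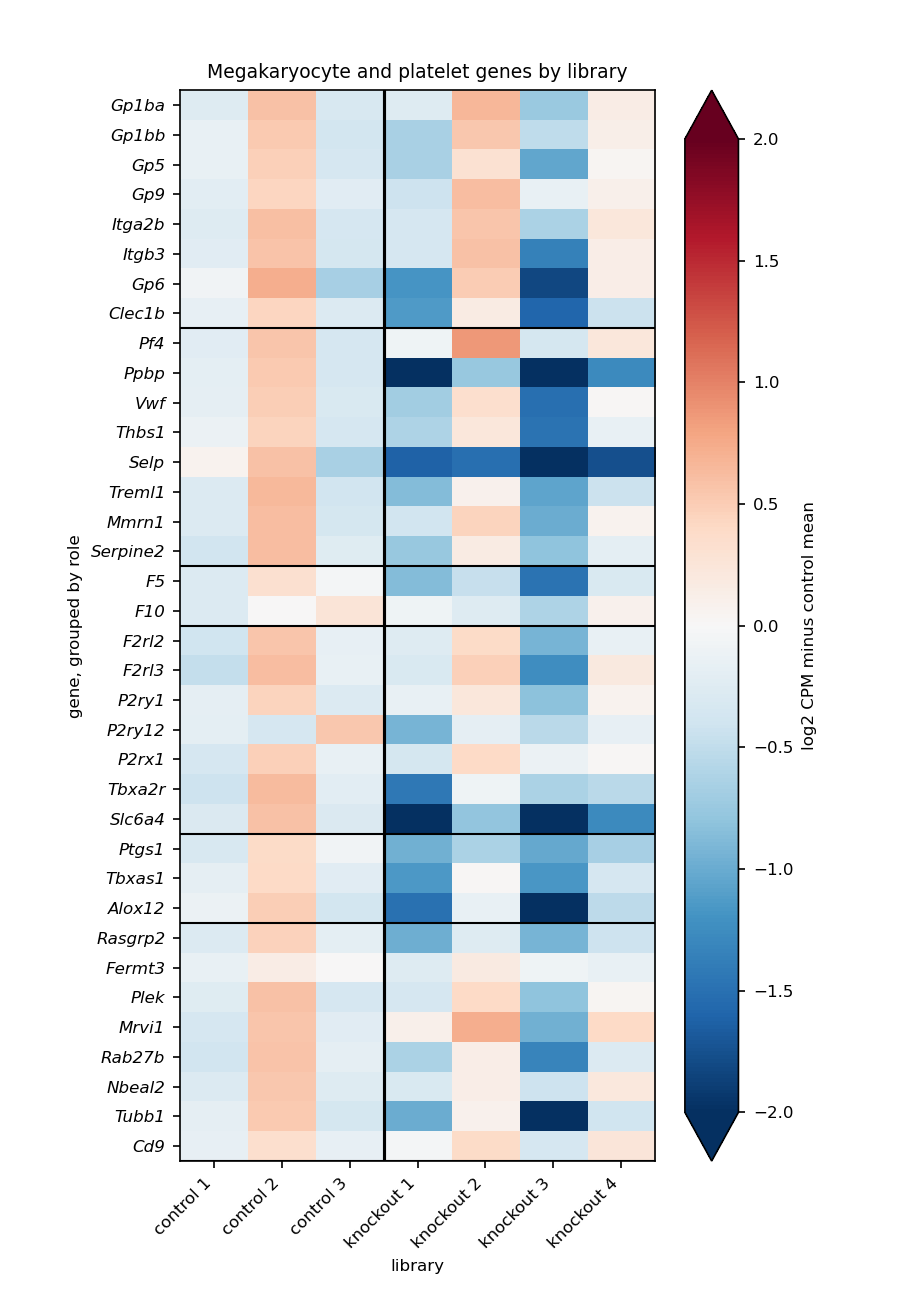
Level of each member in each library as log2 CPM minus the mean of the 3 controls, grouped by role; blue is below and red above the control mean, and the colours saturate at 2.0 in either direction. Control 2 and knockout 2 are red in most rows and knockout 3 blue, while Ppbp, Selp, Slc6a4, F5 and Ptgs1 are blue in all 4 knockouts. Rasgrp2, Alox12, Tbxa2r and P2ry12 are also below the control mean in all 4 knockouts, though only slightly in knockout 2.

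All 8 adhesion receptors overlapped between the groups. Itga2b, the alpha chain of the fibrinogen receptor and a marker of the lineage, held 211, 381 and 200 CPM in control libraries against 200, 372, 163 and 295 CPM in knockouts (log2 fold change -0.04, SE 0.30, adjusted p = 0.979). Its partner chain Itgb3 held 272, 468 and 249 CPM and 249, 477, 124 and 348 CPM (log2 fold change -0.14, SE 0.39, adjusted p = 0.926). Both genes were high in control 2 and knockout 2, and their groups overlapped across most of the range. Gp1ba, which carries the binding site for von Willebrand factor, held 36.9, 65.9 and 35.1 CPM and 36.9, 69.8, 26.3 and 49.0 CPM (log2 fold change -0.01, SE 0.32, adjusted p = 0.992). With standard errors of this size the values do not show that these genes were the same in both groups.

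The other adhesion receptors overlapped in the same way. Gp5 had 45.3 ± 14.0 CPM in control libraries (SD, n = 3) against 37.2 ± 15.2 CPM in knockouts (SD, n = 4), and Gp9, which both belong to the same complex as Gp1ba, had 34.2 ± 9.6 and 35.4 ± 11.3 CPM. Gp1bb, the remaining chain of the complex, had 23.8 ± 8.1 and 22.2 ± 8.6 CPM, but 91.1% of its exon bases lie within Sept5 on the same strand, so its level is uncertain. Gp6, the collagen receptor, had 19.2 ± 9.4 and 14.3 ± 9.6 CPM, and Clec1b, the receptor for podoplanin, 17.0 ± 4.7 and 10.99 ± 5.9 CPM. Adjusted p-values of the 8 adhesion receptors ran from 0.606 to 0.992 (edgeR).

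Among the cargo of alpha granules, the chemokine Ppbp was lower in every knockout than in every control and the chemokine Pf4 was not. Pf4 encodes platelet factor 4 and Ppbp the precursor of the neutrophil-attracting chemokine NAP-2, and both are stored in alpha granules. Pf4 held 178, 308 and 166 CPM in control libraries against 198, 383, 164 and 245 CPM in knockouts (log2 fold change 0.19, SE 0.30, adjusted p = 0.855), so its groups overlapped. Ppbp held 165, 272 and 150 CPM in control libraries against 37.0, 111, 25.6 and 77.8 CPM in knockouts (log2 fold change -1.64, SE 0.44, adjusted p = 0.177 by edgeR and 0.142 by DESeq2). Every knockout lay below every control, and the exact permutation test over libraries, two-sided, came to p = 0.0571, where 0.0286 is the smallest possible.

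The ratio of the 2 chemokines varied little between controls. Ppbp stood at 92.7%, 88.2% and 90.4% of the Pf4 CPM in control libraries against 18.7%, 29.1%, 15.6% and 31.7% in knockouts. That is 90.4% ± 2.3 (SD, n = 3) against 23.8% ± 7.8 (SD, n = 4), 3.97-fold lower, with a wide gap between the highest knockout and the lowest control. This pair was compared after its values were seen, so no test is given for it, and the ratio is not corrected for length, which is the same in every library. Per kilobase of exon, Pf4 and Ppbp were the members with the highest levels in the controls, at 302 and 181 CPM per kb. In the knockouts they stood at 343 and 58.1 CPM per kb, and Fermt3 at 67.7 and Thbs1 at 62.6 CPM per kb lay between them. The members next in order in the controls were Thbs1 at 83.3, Fermt3 at 71.4, Tubb1 at 56.4, Itgb3 at 55.8, Plek at 55.7 and Itga2b at 48.4 CPM per kb, and each overlapped with its neighbours in that order between control libraries. At the low end of the controls stood Selp at 0.690 and P2ry12 at 0.633 CPM per kb, and in the knockouts they stood at 0.166 and 0.445 CPM per kb. Ppbp and Pf4 are neighbours on chromosome 5 (plus strand, GRCm38), Ppbp at 90768518 to 90770063 and Pf4 at 90772435 to 90773383, with 2371 bases between them.

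**Figure D2:**
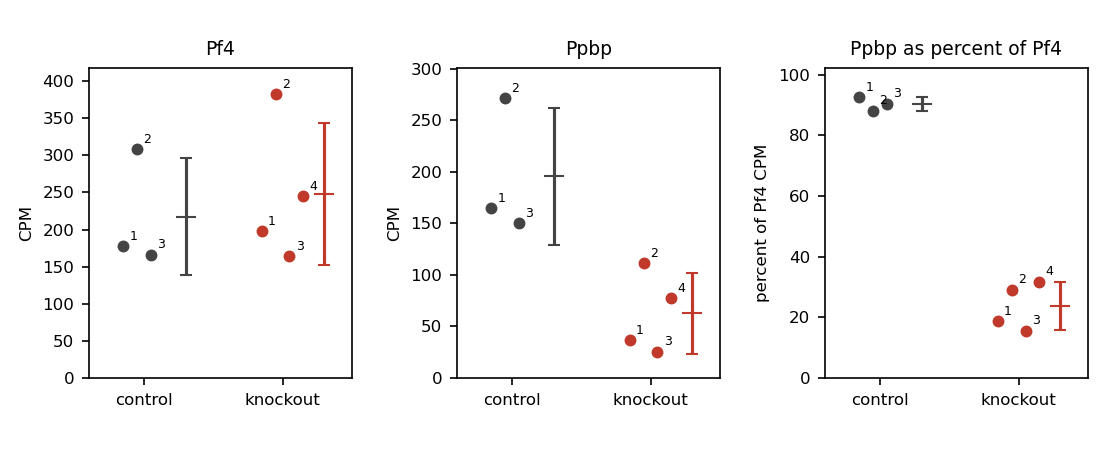
CPM of Pf4 and of Ppbp, and Ppbp as a percent of Pf4, in each library (points, numbered by replicate), with mean and SD beside them for 3 controls and 4 knockouts. Pf4 overlaps between the groups, whereas Ppbp is at least 88.2% of Pf4 in each control and at most 31.7% in each knockout.

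The 250 bases before the start of Ppbp and Pf4 are shown because the fold changes of these neighbours lay far apart, and those of Selp, Ptgs1 and Slc6a4 because, with Ppbp, they had the smallest unadjusted p of the members. The sequences are from RefSeq on GRCm38.p6, 5′ to 3′, and all 5 genes lie on the plus strand. Positions are chr5:90768268-90768517 for Ppbp, chr5:90772185-90772434 for Pf4, chr1:164115014-164115263 for Selp, chr2:36230176-36230425 for Ptgs1 and chr11:76998347-76998596 for Slc6a4. Capitals mark a match, on either strand, to motifs of GATA or ETS factors, both of them known regulators of megakaryocyte genes. The letters searched for GATA factors were AGATAA, and as a variant of that motif also TGATAA. The letters searched for ETS factors were CCGGAA, and as a variant of that motif also CAGGAA.
Ppbp: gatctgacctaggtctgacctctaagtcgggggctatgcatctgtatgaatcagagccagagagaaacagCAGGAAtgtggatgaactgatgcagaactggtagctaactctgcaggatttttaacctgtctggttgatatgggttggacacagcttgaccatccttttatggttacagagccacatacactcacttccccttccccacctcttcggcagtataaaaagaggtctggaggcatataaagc
Pf4: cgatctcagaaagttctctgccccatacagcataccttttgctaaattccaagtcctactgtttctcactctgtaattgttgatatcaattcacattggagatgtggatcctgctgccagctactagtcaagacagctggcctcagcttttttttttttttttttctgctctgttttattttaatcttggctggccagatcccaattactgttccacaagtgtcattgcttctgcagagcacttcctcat
Selp: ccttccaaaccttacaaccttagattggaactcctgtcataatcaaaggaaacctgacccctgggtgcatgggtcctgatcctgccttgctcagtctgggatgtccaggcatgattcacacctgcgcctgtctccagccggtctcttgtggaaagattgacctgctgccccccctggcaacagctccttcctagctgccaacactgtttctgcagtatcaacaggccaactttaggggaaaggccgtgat
Ptgs1: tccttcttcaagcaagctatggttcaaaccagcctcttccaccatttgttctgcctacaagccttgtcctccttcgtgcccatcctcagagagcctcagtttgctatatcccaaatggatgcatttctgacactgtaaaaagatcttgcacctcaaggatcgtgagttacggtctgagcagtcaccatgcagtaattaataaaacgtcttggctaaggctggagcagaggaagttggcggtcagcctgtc
Slc6a4: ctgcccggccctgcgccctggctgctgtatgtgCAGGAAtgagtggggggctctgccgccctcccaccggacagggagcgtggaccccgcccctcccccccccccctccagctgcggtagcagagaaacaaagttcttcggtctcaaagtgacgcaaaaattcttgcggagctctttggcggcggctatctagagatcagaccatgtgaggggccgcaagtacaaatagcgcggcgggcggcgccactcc
Ppbp holds the ETS letters CAGGAA 180 bases before its start and Slc6a4 holds them 217 bases before its start. None of the letters searched was found in the windows of Pf4, Selp and Ptgs1. Other forms of the GATA and ETS motifs were not searched. The difference between Ppbp and Pf4 therefore covers these letters only and does not mean that Pf4 lacks ETS motifs. RefSeq gave promoters for 32 members, of which 9 (28.1%) held a GATA motif and 14 (43.8%) an ETS motif, and among 27025 promoters of the same length 17.0% and 34.9% did. A match is a description of letters and not a binding site.

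Selp, P-selectin, sits in the alpha granule membrane and reaches the platelet surface on activation, where it binds leukocytes. Its level was low, with 65, 105 and 39 reads in control libraries against 16, 21, 7 and 16 in knockouts, or 2.99, 4.35 and 1.79 CPM and 0.874, 0.948, 0.332 and 0.780 CPM. Each knockout lay below each control (log2 fold change -2.05, SE 0.40, p = 0.000576, adjusted p = 0.0693 by edgeR and 0.000561 by DESeq2), with an exact permutation p of 0.0286, the smallest possible. Endothelial cells express Selp too. The endothelial list, with reads for 15 of 15 genes, held 230 to 365 CPM in control libraries against 223 to 277 CPM in knockouts and 13 of its genes were lower; Cdh5, its defining cadherin, had 18.3 ± 0.50 CPM and 10.4 ± 2.3 CPM (adjusted p = 0.0829 by edgeR and 0.00095 by DESeq2). The part of endothelial RNA in the level of Selp was not tested, nor that of reads from 2 non-coding genes on the opposite strand, which share 9.9% and 4.2% of its exon bases.

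The remaining cargo and secreted proteins overlapped between the groups. Thbs1, thrombospondin 1, held 454, 672 and 391 CPM in control libraries against 321, 579, 177 and 444 CPM in knockouts (log2 fold change -0.41, SE 0.34, adjusted p = 0.709). Vwf, von Willebrand factor, held 123, 195 and 112 CPM and 86.0, 176, 48.9 and 141 CPM (log2 fold change -0.34, SE 0.37, adjusted p = 0.775). Both are also made by endothelial cells, and both were lowest in knockout 3. Treml1, a receptor of the alpha granule membrane, had 45.5 ± 19.2 and 30.5 ± 11.2 CPM, and Mmrn1, multimerin 1, which binds factor V in the granule, 63.5 ± 25.6 and 55.8 ± 22.4 CPM. Serpine2, an inhibitor of thrombin, had 18.0 ± 7.2 and 13.4 ± 4.4 CPM.

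Of both coagulation factors, F5 was lower without overlap and F10 was not. F5, the cofactor of the enzyme that activates prothrombin, held 90.8, 136 and 106 CPM in control libraries against 60.1, 79.2, 39.5 and 88.4 CPM in knockouts (log2 fold change -0.73, SE 0.24, adjusted p = 0.311 by edgeR and 0.0892 by DESeq2). Its highest knockout lay just under its lowest control, with an exact permutation p of 0.0571. F5 is the next listed member after Selp on chromosome 1 (plus strand, GRCm38), at 164151838 to 164220277 against 164115264 to 164150026. F10, the enzyme factor X, held 61.5, 74.5 and 88.7 CPM and 69.5, 61.9, 48.0 and 78.4 CPM (log2 fold change -0.22, SE 0.17, adjusted p = 0.693). Like P2ry12, and unlike the other 34 members, it was highest among controls in control 3 and not in control 2. Factor X is mainly a product of hepatocytes. The summed hepatocyte markers held 15380, 11090 and 19410 CPM in control libraries and 23430, 15310, 13970 and 24990 CPM in knockouts. They ranked the libraries as F10 did within the knockouts but not within the controls, where they were lowest in control 2 and F10 in control 1. The part of hepatocyte RNA in the levels of F10 and F5 was not tested.

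Among the receptors and the transporter for soluble agonists, Slc6a4 stood apart. It encodes the serotonin transporter through which platelets fill their dense granules. Slc6a4 held 8.34, 15.4 and 8.41 CPM in control libraries against 1.91, 5.87, 1.90 and 4.19 CPM in knockouts (log2 fold change -1.62, SE 0.41, adjusted p = 0.147 by edgeR and 0.00333 by DESeq2). Its groups did not overlap (exact permutation p = 0.0571). The receptors overlapped between groups. P2rx1, the ATP-gated channel, held 40.0, 70.2 and 45.2 CPM and 39.3, 66.2, 46.2 and 51.0 CPM (log2 fold change -0.03, adjusted p = 0.973). F2rl2, the thrombin receptor PAR3, held 39.7, 77.0 and 46.4 CPM and 43.6, 67.8, 27.3 and 47.1 CPM (log2 fold change -0.23, adjusted p = 0.817). P2ry1, an ADP receptor of which 23.1% of the exon bases lie opposite an antisense gene, held 26.5, 40.8 and 24.6 CPM and 26.9, 34.95, 16.9 and 31.5 CPM (log2 fold change -0.15, adjusted p = 0.858). Of the rest, the PAR4 gene F2rl3 had 17.4 ± 7.1 and 15.6 ± 7.0 CPM, the thromboxane receptor Tbxa2r 5.29 ± 2.21 and 3.29 ± 1.20 CPM, and the ADP receptor P2ry12, the lowest member per kilobase in the controls, 1.61 ± 0.60 and 1.13 ± 0.29 CPM.

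All 3 enzymes of lipid mediators were lower on average, and in Ptgs1 the groups did not overlap. Ptgs1, cyclooxygenase 1, makes the precursor of thromboxane. It held 59.6, 97.1 and 70.2 CPM in control libraries against 37.9, 47.7, 36.3 and 46.8 CPM in knockouts (log2 fold change -0.84, SE 0.17, p = 0.000632, adjusted p = 0.0702 by edgeR and 0.000494 by DESeq2; exact permutation p = 0.0286). EdgeR called it in 1 of the 7 fits that each left out a library, without control 1 (adjusted p = 0.0368). Tbxas1, which turns that precursor into thromboxane, held 15.8, 23.6 and 15.3 CPM and 8.03, 18.1, 7.86 and 14.1 CPM (log2 fold change -0.60, SE 0.30, adjusted p = 0.529). Alox12, the platelet 12-lipoxygenase, held 51.2, 78.3 and 43.3 CPM and 19.8, 50.5, 10.2 and 38.8 CPM (log2 fold change -0.95, SE 0.45, adjusted p = 0.496). In both, knockout 2 lay within the range of the controls and the other knockouts lay below it. Ptgs1 and Tbxas1 are also expressed by other myeloid cells; the neutrophil and macrophage sums given above did not overlap between the groups, and their part in these levels was not tested.

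Of the signalling, traffic and cytoskeletal genes, Rasgrp2 had the smallest p. It encodes the calcium-sensing exchange factor that switches on Rap1 before the integrin is activated. Rasgrp2 held 108, 179 and 114 CPM in control libraries against 66.4, 109, 68.3 and 97.6 CPM in knockouts (log2 fold change -0.65, SE 0.22, p = 0.0151, adjusted p = 0.317 by edgeR and 0.111 by DESeq2; exact permutation p = 0.0857). Only knockout 2 overlapped with the controls, by reaching just above control 1. Fermt3, kindlin-3, which acts on the integrin tail and is found across blood cells, held 369, 458 and 412 CPM and 345, 464, 386 and 370 CPM (log2 fold change -0.08, SE 0.12, adjusted p = 0.849). Plek, pleckstrin, held 201, 359 and 189 CPM and 188, 315, 137 and 246 CPM (log2 fold change -0.17, SE 0.29, adjusted p = 0.864).

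The 5 other genes of that role had overlapping groups. Tubb1, the beta tubulin of the platelet's marginal band, had 79.3 ± 27.1 CPM in control libraries against 49.2 ± 26.7 CPM in knockouts, and Rab27b, which brings dense granules to the membrane, 72.2 ± 26.4 and 51.4 ± 20.5 CPM. Nbeal2, needed for alpha granules to form, had 86.5 ± 29.8 and 79.5 ± 16.9 CPM. Mrvi1, a target of the cGMP-dependent kinase, had 81.9 ± 29.8 and 89.5 ± 37.8 CPM, and the tetraspanin Cd9 63.8 ± 13.4 and 66.9 ± 14.3 CPM (SD, n = 3 and 4).

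Because the members moved together between libraries, each was also set against Itga2b of the same library, a choice made after the data were seen. On that scale 17 of the other 35 members were lower in every knockout than in every control and 0 were higher, where 1.72% of all genes were lower without overlap. Without the division that share of all genes was 6.81%. Itga2b is a member that varied with the others, so dividing by it can narrow their spread and widen that of unrelated genes. The members and all genes are therefore not compared on equal terms here. Ppbp was 78.3%, 71.4% and 75.3% of Itga2b CPM in control libraries against 18.5%, 29.9%, 15.7% and 26.4% in knockouts. Slc6a4 was 3.96%, 4.03% and 4.21% against 0.957%, 1.58%, 1.16% and 1.42%, with an SD of 0.13 between controls. Treml1, whose CPM overlapped, was 17.0%, 17.8% and 16.6% against 11.8%, 12.3%, 12.8% and 10.8%. Alox12 was 24.3%, 20.5% and 21.7% against 9.90%, 13.6%, 6.28% and 13.2%. For these 4 genes the groups were apart on this scale.

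Other members overlapped on that scale. Gp1ba was 17.5%, 17.3% and 17.6% of Itga2b in control libraries against 18.5%, 18.8%, 16.1% and 16.6% in knockouts, a mean of 17.5% in both groups. Itgb3 was 129%, 123% and 124% in control libraries against 125%, 128%, 76.1% and 118% in knockouts, where knockout 3 alone stood far below. Pf4 was 84.5%, 80.9% and 83.2% against 99.1%, 103%, 101% and 83.0%, with knockout 4 inside the control range. Dividing by 1 gene passes that gene's own error to all of them.

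**Figure D3:**
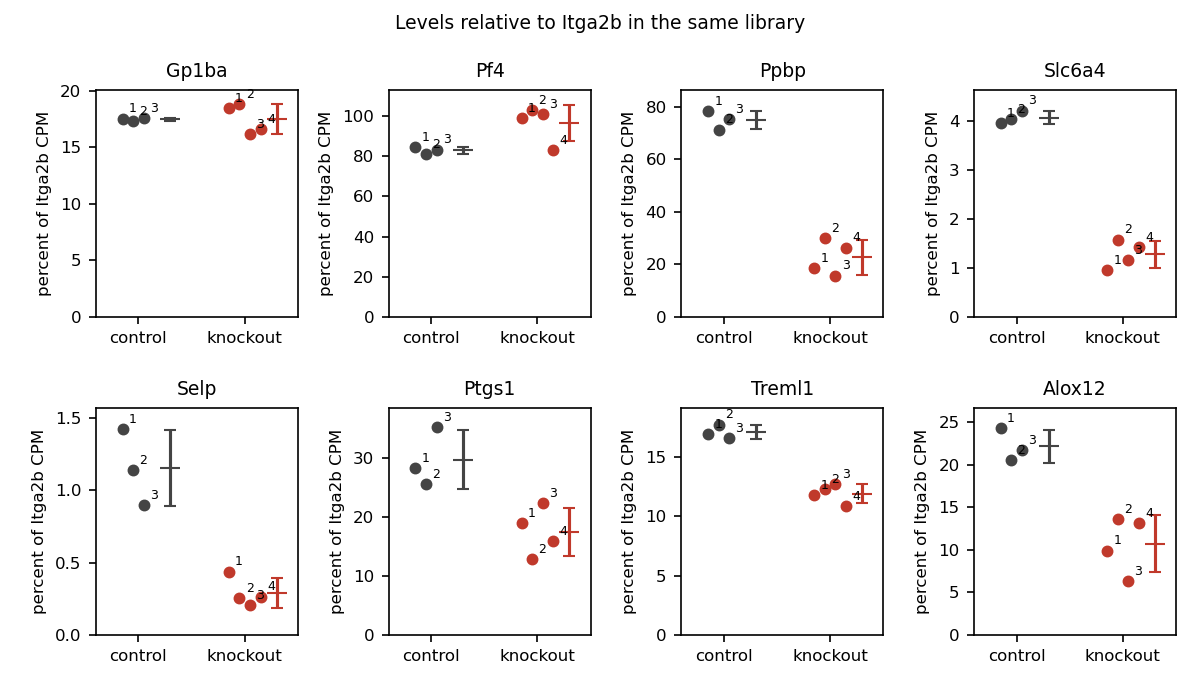
Levels of 8 members as a percent of the Itga2b CPM of the same library (points, numbered by replicate), with mean and SD for 3 controls and 4 knockouts; all axes start at 0. Gp1ba and Pf4 overlap between the groups, and Ppbp, Slc6a4, Selp, Ptgs1, Treml1 and Alox12 do not. These 8 are a selection and not a fair sample: of all 35 members other than Itga2b, 17 did not overlap on this scale.

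An edgeR fit with the log2 CPM of Itga2b as a further term, also chosen after the data were seen, called 7 of the 35 members lower and 0 higher, against 0.886% of all genes called lower. They were Ppbp (log2 fold change -1.76, adjusted p = 0.00294), Slc6a4 (-1.66, 0.00775), Ptgs1 (-0.81, 0.00979), Rasgrp2 (-0.61, 0.014), Selp (-2.005, 0.0363), Treml1 (-0.52, 0.0396) and Alox12 (-1.07, 0.0483). With Itgb3 in place of Itga2b 6 members were called lower, against 0.579% of all genes, and with Gp9 4, against 0.817%. Each of these terms is a member, and it takes up the spread between libraries that the members share. For Treml1 the SE was 0.31 with group only and 0.086 with the Itga2b term. The shares of all genes are therefore not a like comparison for these counts. The count with the Itga2b term leaned on single libraries: it was 4, 3 and 1 without controls 1, 2 and 3, and 5, 1, 13 and 1 without knockouts 1, 2, 3 and 4. Of all genes 4.46% were called lower in the fit without knockout 3, and 0.073% to 0.571% in the other 6. Ppbp was called in all 7 of those fits, with adjusted p-values between 0.000136 and 0.031, Slc6a4 in 4, Ptgs1 and Rasgrp2 in 3 each, Selp and Alox12 in 2 each, and Treml1 in 1. Clec1b, F5, Tbxa2r, Tbxas1, Rab27b and Tubb1 passed in a single fit, the one without knockout 3.

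**Figure D4:**
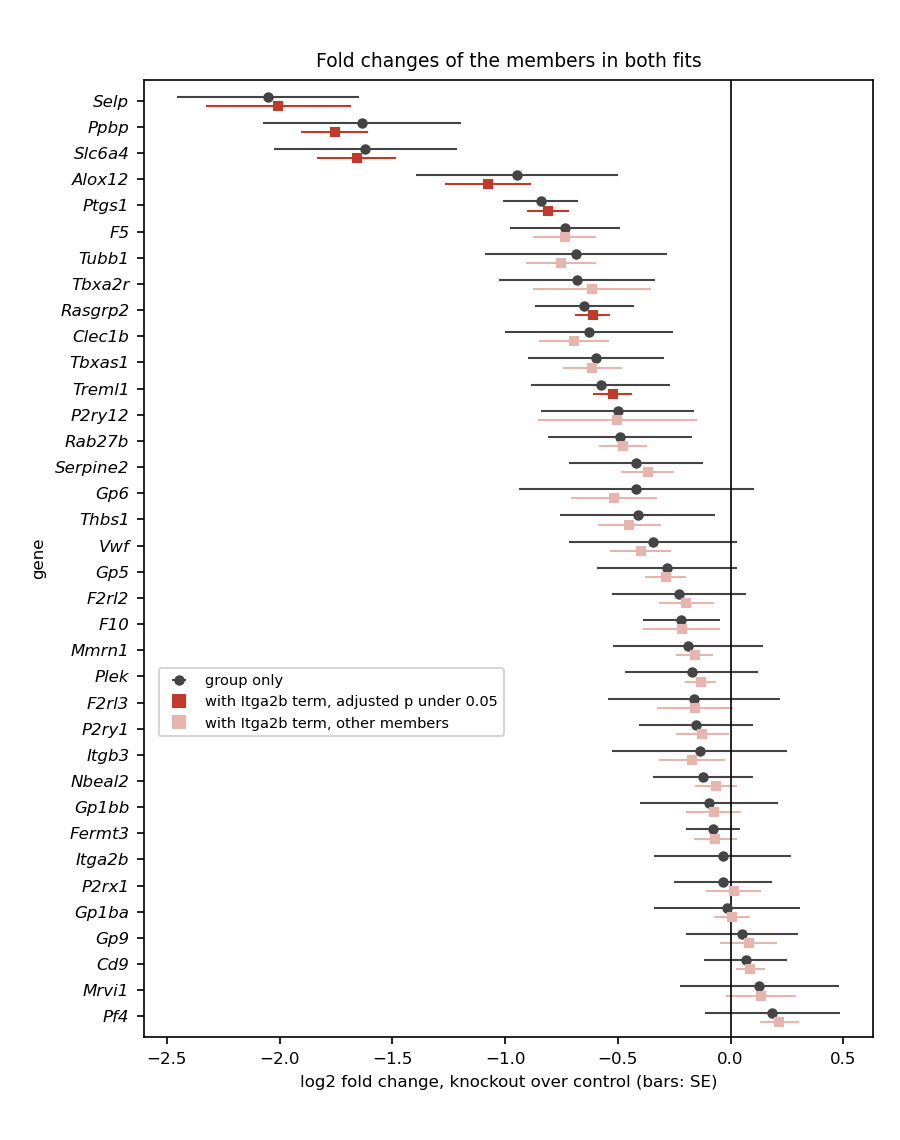
Log2 fold changes (knockout over control, bars are SE) of the 36 members, from the fit with group only (black circles) and from the fit with Itga2b as a term (squares, dark red where the adjusted p is under 0.05); Itga2b itself has no second value. The estimates sit close together in both fits, the bars are shorter for most members with the term, and 7 genes pass there where 0 pass with group only.

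The median of the lineage's regulators lay near that of all genes. In a list of 24 transcription factors, cofactors and the thrombopoietin pathway, all tested, 11 were lower and 13 higher, with a median log2 fold change of 0.02 and a range of -0.47 to 0.49. EdgeR called 0 of them, against 0.559% of all genes, and DESeq2 called 1 higher, against 0.33%. At an unadjusted edgeR p under 0.05 1 was lower and 3 were higher, against 6.9% and 3.95% of all genes. Zfpm1, the GATA cofactor FOG-1, held 383, 319 and 316 CPM in control libraries against 427, 449, 459 and 448 CPM in knockouts (log2 fold change 0.39, SE 0.09, adjusted p = 0.114 by edgeR and 0.00763 by DESeq2). All its knockouts lay above all its controls. Gata1, the master factor of erythroid cells and megakaryocytes, had 164 ± 17 and 200 ± 19 CPM (edgeR adjusted p = 0.329), Gata2 62.4 ± 22.7 and 88.0 ± 13.3 CPM (adjusted p = 0.451), and the repressor Bach1 56.7 ± 2.8 and 45.1 ± 6.2 CPM (adjusted p = 0.328). These factors also act in erythroid cells and progenitors, whose RNA is in the same libraries.

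Of 66 other genes of the platelet pathway, 64 were tested (Skap1 and Pdpn were not), of which 44 were lower and 20 higher with a median log2 fold change of -0.14. F13a1 and Srgn fell and none rose by edgeR, where 0.545% of all genes were called lower. At an unadjusted p under 0.05 7 were lower and 1, the thrombin receptor gene F2r, higher, against 6.9% and 3.95% of all genes. F13a1, the subunit of the factor that cross-links fibrin, fell from 67.0, 115 and 85.7 CPM to 3.71, 8.13, 10.7 and 8.72 CPM (log2 fold change -3.51, SE 0.30, adjusted p = 0.00174). Srgn, the core protein that holds charged cargo in granules, fell from 196, 306 and 264 CPM to 113, 130, 160 and 109 CPM (log2 fold change -0.998, SE 0.17, adjusted p = 0.0389). F13a1 was called in all 7 fits that each left out a library, and Srgn lost its call without control 2 or 3 or knockout 1, 2 or 4 (adjusted p from 0.108 to 0.165) and with sex as a term (0.0704). Monocytes express F13a1 and neutrophils and mast cells Srgn, and the neutrophil and macrophage sums given above did not overlap between the groups. Their part in these falls was not tested. F2r had 111 ± 16 and 147 ± 33 CPM (adjusted p = 0.44).

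Reads of Xist and of Y-linked genes gave the sex of each library. Controls 1 and 3 and knockout 2 were female and the remaining 4 libraries male, so control 2, the library with the highest member levels, was the only male control, and knockout 2 the only female knockout. Among the males, Itga2b held 381 CPM in the control and 200, 163 and 295 CPM in the knockouts. Among the females the controls held 211 and 200 CPM of it, and the knockout 372 CPM. Ppbp was lower in knockouts of both sexes, from 272 CPM to 37.0, 25.6 and 77.8 CPM in males and from 165 and 150 CPM to 111 CPM in the female. The same held for Selp, F5, Slc6a4 and Ptgs1. With Ppbp these are the members whose groups did not overlap, so lower knockouts in both sexes follow from that and add nothing to it. With sex as a term edgeR called 0 members, where 0.375% of all genes were called lower. The 1 male control and the 1 female knockout mean that sex and a single library cannot be told apart.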

How the data were processed

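PolyA RNA libraries of 3 control and 4 knockout samples were made with a stranded kit, per the labels. The authors aligned reads with HISAT2 to mm10 and counted them with featureCounts, per the submitters' processing notes; the annotation and the strand setting are not stated. The deposited count table holds whole reads per gene symbol. The authors' deposited table of their own DESeq2 comparison holds log2 fold changes, a test score, p-values and a signal, the counts divided by a size factor; only its adjusted p is quoted. Totals ran from 18748885 to 23571878 reads per library, and members held 202 to 66144 reads over all libraries, with no member at 0 in any.

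Counts were filtered with filterByExpr, scaled by TMM and tested with edgeR 4.0.16 (glmQLFit, glmQLFTest; R 4.3.3) in a model of group alone, with Benjamini-Hochberg adjustment over 14679 genes. Genes under an adjusted p of 0.05 were called; SE is the log2 fold change divided by the root of F. Log2 CPM used a prior count of 2. The permutation test compared mean log2 CPM over 35 divisions of the 7 libraries. Levels per kb used summed exon lengths of GENCODE M21, found for all 36 members. The fit was tested on simulated counts, in which each gene varied independently, unlike the members here. It recovered 13 of 50 genes changed 1.5-fold, 39 of 50 changed 2-fold, 43 of 50 changed 4-fold and 47 of 50 changed 8-fold. A member that is not called may therefore still differ by a small fold. Sex was called female at over 10 CPM of Xist.

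The members and lists were chosen with earlier results of these data known. CPM in every library is given for members called by edgeR or DESeq2, at an unadjusted p under 0.05, or among the 3 highest of their role; of the 2 lists of pathway genes (90 entries), called genes are named; of the 9 cell type lists, the sum and the highest gene. Mean levels of the other named regulators and F2r were given after their values were seen. Promoters are RefSeq sequences of the members with the 4 smallest p, and of Pf4, added after its values were seen. Proteins are not shown. Alternatives were other scalings and filters, DESeq2 1.42.0, limma-voom 3.58.1, a replicate block and leaving out each library. The levels of Itga2b, Itgb3 or Gp9 as a term, and sex, were added after the data were seen. Replicates were compared by chi-square, which per degree of freedom was at least 8.5, so none is a repeat deposit.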

Additional observations from a re-analysis of the deposited data

Results flagged for a closer look

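In 27 of the 36 members the libraries of the sexes lay in opposite directions: every male knockout was below the male control, and the female knockout was above both female controls. Of all 14679 tested genes 9.89% had that arrangement. Itga2b differed between knockout and control by -0.84 on the log2 CPM scale in males and by 0.86 in females, and Pf4 by -0.63 and 1.15. The median member differed by -1.08 in males and by 0.45 in females. In 5 members, Ppbp, Selp, F5, Slc6a4 and Ptgs1, the knockouts were lower in both sexes, an arrangement of 12.9% of all genes, with Ppbp at -2.69 and -0.50. In these 5 every knockout lay below every control, so the same direction in both sexes was given by that and is no further result. An interaction of sex and genotype, fitted with edgeR over all genes, passed for 0 genes after adjustment, and the members' lowest adjusted p was 0.948. At an unadjusted p under 0.05 it held for 32 members and for 4.9% of all genes (lowest p of a member 0.00037, Pf4). The members varied together between libraries, so neither the 27 nor the 32 members are independent observations. The design has 1 male control and 1 female knockout, so sex cannot be told apart from what else sets those libraries apart.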

How the results depend on the processing

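With all libraries the median log2 fold change of the members was -0.31, and it ran from -0.56 to -0.02 when each library was left out. EdgeR called 0 members with all libraries. It called 4 with no filter on low counts (0.887% of all genes lower). With Itga2b, Itgb3 or Gp9 as a term it called 7, 6 and 4 (0.886%, 0.579% and 0.817% of all genes lower). When each library was left out it called 0 to 1 (0.126% to 0.798% of all genes lower). DESeq2 called 3 (1.95% of its genes lower). Same-numbered libraries deviated from their group means with correlations of 0.17, -0.02 and -0.0052, and controls 2 and 3 correlated best with a knockout of another number, so the numbers are not taken to pair samples. The fit with a replicate block called 6 members lower, against 0.79% of all genes. With the Itga2b term the left-out fits called 1 to 13. Between 19 and 36 members were lower when a library was left out, 19 without control 2. DESeq2 called 1 regulator. Of the other pathway genes 4 were called with the Itga2b term, 1 with sex as a term, and 1 to 2 with a library left out. In those fits 0.886%, 0.375% and 0.126% to 0.798% of all genes were called lower.

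Of the members' log2 fold changes under alternatives, 571 kept direction and side of the threshold, 31 newly passed it and 43 turned sign. With the block Mrvi1 was -0.039 and Cd9 -0.00062; with the Itga2b term Gp1ba was 0.0056 and P2rx1 0.014; with the Itgb3 term Gp1ba was 0.14, Gp1bb 0.040, Itga2b 0.12, P2rx1 0.067 and Nbeal2 0.0051. Leaving out single libraries gave Cd9 -0.045 to 0.25, F2rl2 -0.47 to 0.11, F2rl3 -0.41 to 0.22, Fermt3 -0.17 to 0.0019, Gp1ba -0.30 to 0.34, Gp1bb -0.36 to 0.22, Gp6 -0.84 to 0.034, Gp9 -0.18 to 0.31, Itga2b -0.27 to 0.33, Itgb3 -0.45 to 0.20, Mmrn1 -0.44 to 0.19, Mrvi1 -0.11 to 0.47, Nbeal2 -0.26 to 0.20, P2rx1 -0.19 to 0.25, P2ry1 -0.29 to 0.11, Pf4 -0.10 to 0.52, Plek -0.39 to 0.18 (log2 fold changes). The cause was not tested. The smallest member count in a library was 7 reads, for Selp in knockout 3.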
